A study of Homo sapiens with 12 samples.

Results

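The SR splicing proteins were represented by 10 genes, SRSF1 to SRSF7 and SRSF9 to SRSF11, out of 22564 genes in the deposited table. They were taken by gene symbol, with the row of the highest mean wherever a symbol had several. Each of the 10 symbols had 1 row, so no choice between rows was needed. The cells were A549, an established line of human lung carcinoma, and total RNA was sequenced in 2 groups of 6 libraries. One group received small interfering RNA against YTHDC1 (siYTHDC1) and the other a scrambled control (siSCR), both at 40 nM for 48 to 72 h. No other agent is named in the labels for either group. All libraries come from a single cell line, and the labels do not say whether the 6 libraries of a group are separate cultures.

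SR proteins carry 1 or more RNA recognition motifs and a tail rich in arginine and serine. They bind exonic enhancers and help the U1 and U2 particles to choose splice sites, and several of them also serve mRNA export, stability and translation. Kinases of the SRPK and CLK families phosphorylate the tail, which controls the entry of the proteins into the nucleus and their release from nuclear speckles. Many SR genes limit their own output by splicing in a poison exon, which sends the transcript to nonsense-mediated decay. YTHDC1 binds the RNA mark N6-methyladenosine (m6A) in the nucleus, and SRSF3 and SRSF10 are known as its partners, with SRSF3 recruited to methylated exons and SRSF10 kept away from them.

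The quantity described is the mean normalized count per gene, the authors' mean over all 12 libraries of both groups. It has no column per library or per group, so no SD is given. The table's other 5 value columns hold the authors' own comparison of siYTHDC1 with siSCR and were not used, so no test and no comparison of the groups is given. Neighbours in any order below therefore cannot be separated by replicate spread. The depth reached in each library cannot be read from such means. The cell line was checked against its markers with the same means. KRT8 and KRT18, the simple epithelial keratins, had 27600 and 14908, and the A549-rich enzymes ALDH1A1 and AKR1B10 had 34836 and 24595. The adhesion molecule EPCAM was low at 58.4. Of 10 markers of blood, endothelial and stromal cells, 4 were measured, from 2.13 for PDGFRB to 194 for COL1A1. Of 5 markers of alveolar identity, ABCA3 (1046) was measured, and SFTPC, SFTPB, SFTPA1 and NKX2-1 had no value to analyse here.

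The study lists 3 siRNAs against YTHDC1 and 1 scrambled control, which are shown because the 2 groups differ by the siRNA received. Which of the YTHDC1 siRNAs was used for these libraries is not given in the sources used here. They are printed 5′ to 3′ in lower case as the supplement lists them, without the overhang.

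siSCR: cagucgcguuugcgacugg
siRNA2_YTHDC1: cgaguaugcaaauauugaa
siRNA4_YTHDC1: cagagauaaacgaguacauga
siRNA-YTHDC1 (3′ UTR): uuacuacuuguaaacacacac

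In GRCh37, siRNA2_YTHDC1 matched the 3′ UTR of YTHDC1 at chr4:69179376-69179394 on the minus strand. The siRNA4_YTHDC1 sequence matched coding bases across an exon junction, between 69180037 and 69182047. The third matched the 3′ UTR as its reverse complement, at chr4:69179739-69179759. Each of the 3 matched 3 of 7 annotated YTHDC1 transcripts in full. None of the 4 siRNAs, in either orientation, had a full-length match in any of the 120 annotated transcripts of the SR genes. Shorter matches were not searched.

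The SR genes were mostly highly expressed, over an 11.0-fold range of mean normalized counts. SRSF1, also known as ASF/SF2, which promotes use of proximal 5′ splice sites, stood highest with 4334. SRSF10, a splicing repressor when dephosphorylated, stood lowest with 394. The median of the 10 genes was 1656, beside 65.8 over all genes of the table and 313 over its 14100 protein-coding genes. In all, 8 of the 10 had a mean of at least 1000, as did 12.9% of all genes and 20.3% of protein-coding genes. Together they held 20796 normalized counts, or 0.182% of the sum over the table.

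**Figure D1:**
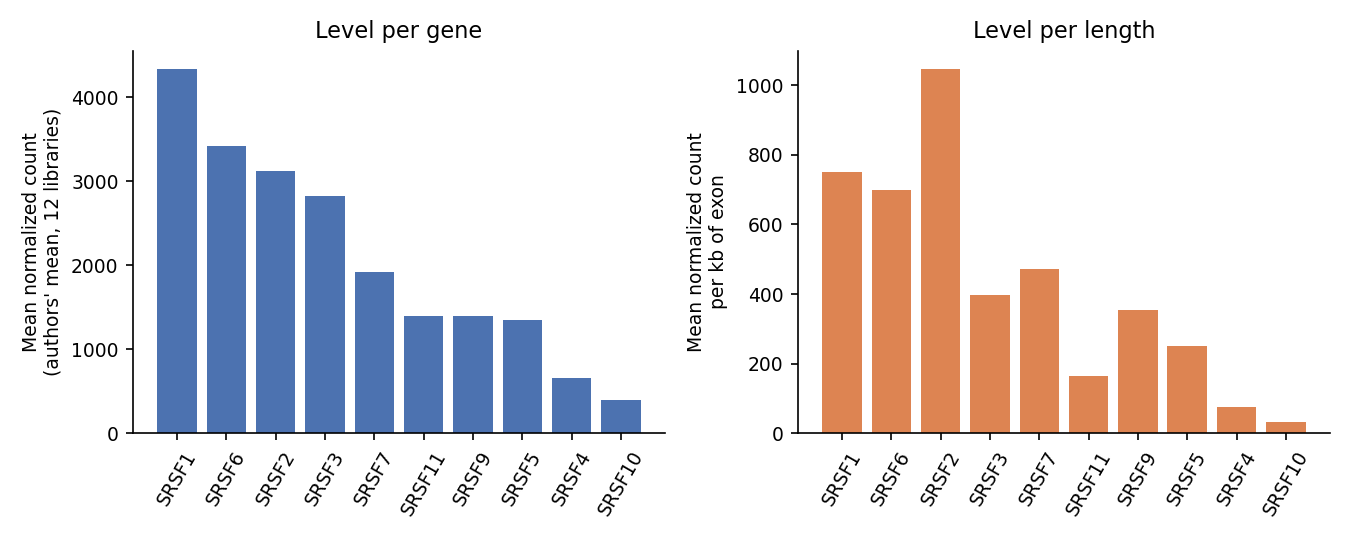
Level of each SR gene, in order of the mean normalized count, as the authors' mean over 12 libraries (left, y axis from 0) and as that mean per kilobase of exon (right, y axis from 0). There are no error bars because the mean comes with no value per library. SRSF1 leads on the left with 4334 and SRSF2 on the right with 1047, and SRSF10 is lowest in both.

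The genes with the highest means encode activators that bind exonic enhancers, a trait that is not limited to them. SRSF1 (ENSG00000136450.8, chromosome 17, 56078280 to 56084707, minus strand, GRCh37) took 20.8% of the family's counts. SRSF2 (ENSG00000161547.10, chromosome 17, 74730197 to 74733415, minus strand), also known as SC35, had 3116. SRSF6 (ENSG00000124193.10, chromosome 20, 42086533 to 42094686, plus strand) had 3415. These leading genes, SRSF1, SRSF6 and SRSF2, made up 52.2% of the family's counts.

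SRSF3 (ENSG00000112081.12, chromosome 6, 36562130 to 36573377, plus strand), the smallest SR protein and an adaptor for mRNA export, had a mean of 2824. SRSF7 (ENSG00000115875.14, chromosome 2, 38970741 to 38978636, minus strand), its paralog with an added zinc knuckle, had 1914, which is 0.678 of the SRSF3 mean. Per kilobase of all exons this order was turned, at 473 for SRSF7 and 397 for SRSF3. The turn rested on that length. Per kilobase of the longest transcript SRSF7 had 670 and SRSF3 had 668. Per kilobase of coding sequence SRSF3 was again higher, at 5739 beside 2681 for SRSF7. The partners of YTHDC1 were far apart: SRSF3 had 7.17 times the mean normalized count of SRSF10, and 11.9 times its level per kilobase of exon.

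SRSF5 (ENSG00000100650.11, chromosome 14, 70193617 to 70238722, plus strand), a delayed-early gene of growth stimulation, had a mean of 1343. SRSF9 (ENSG00000111786.4, chromosome 12, 120899475 to 120933749, minus strand), which resembles SRSF1 but has a short tail, had 1397. SRSF11 (ENSG00000116754.9, chromosome 1, 70671365 to 70718735, plus strand), a partner of U2AF, had the same rounded mean of 1397. These means were nearly equal, but per kilobase of exon SRSF9 was highest of them at 353, SRSF5 had 251 and SRSF11 had 165.

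The remaining members were the lowest. SRSF4 (ENSG00000116350.11, chromosome 1, 29474255 to 29508412, minus strand), which has a long tail, had 662. SRSF10 (ENSG00000188529.10, chromosome 1, 24290837 to 24307417, minus strand) had 394, at percentile 71.8 of all genes and 55.8 of protein-coding genes. Outside the family as defined here, SRSF12, a close relative of SRSF10, had 31.0, and the processed pseudogene SRSF10P1 had 1.56. SRSF8 was not analysed here.

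Levels of different genes can be set side by side only per length, so the means were divided by the exonic length of each gene in kilobases. On this scale the order was SRSF2 (1047 normalized counts per kilobase), SRSF1 (750), SRSF6 (698), SRSF7, SRSF3, SRSF9, SRSF5, SRSF11, SRSF4 (75.2) and SRSF10 (33.2). The range was wider than for the undivided means, at 31.5-fold. The median of the SR genes was 375 per kilobase and that of protein-coding genes 58.6, a ratio of 6.40. Of the 10 genes, 8 lay above the upper quartile of protein-coding genes, 140 per kilobase, while SRSF4 lay at percentile 56.5 and SRSF10 at 37.9.

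**Figure D2:**
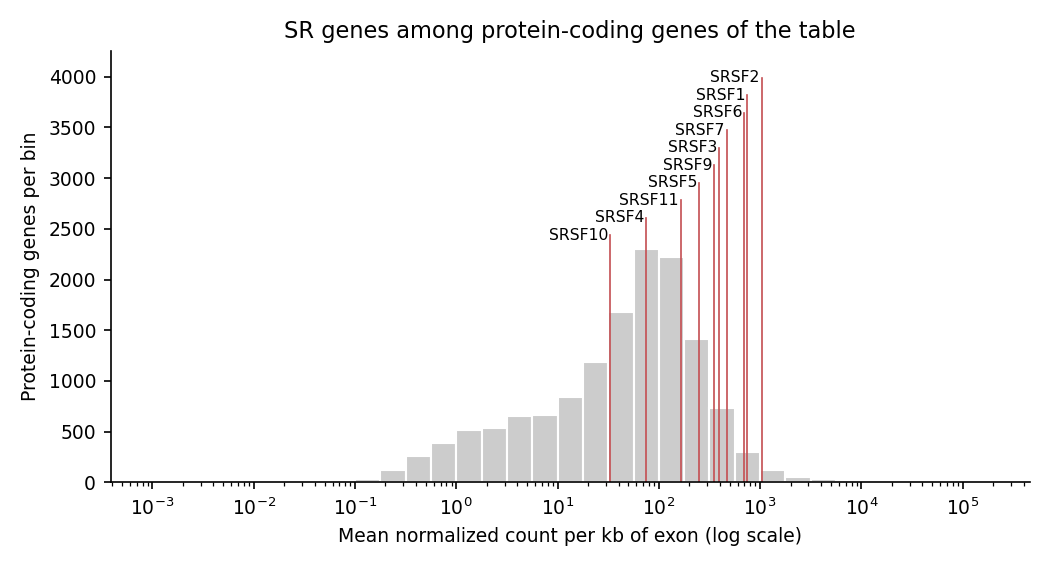
Protein-coding genes of the table by mean normalized count per kilobase of exon (x axis, log scale; y axis, genes per bin), with a red line at the value of each SR gene (line heights carry no value). SRSF10 (33.2) lies below the protein-coding median of 58.6, SRSF4 (75.2) just above it, and the other 8 in the upper part of the distribution.

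The order rests on the length used. With the coding length in place of all exons, SRSF3 came first (5739 per kilobase of coding sequence) and SRSF1 second (5710), while SRSF2 followed them (4700) and SRSF4 was lowest (447). With the longest transcript, SRSF2 stayed first (1080) and SRSF9 was second (820). SRSF4 and SRSF10 held the lowest places on each of the 3 scales. SRSF3 and SRSF10 have long 3′ UTRs of 3611 and 6795 bases in their canonical transcripts, beside coding lengths of 492 and 786 bases.

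Exons of some SR genes overlap other genes in the newer annotation used here. Such an overlap could have affected these values only if the older annotation that the authors counted on also held it. Whether it did was not examined. How reads over shared bases were counted is not given in the sources used here. Whether such reads were added or left out is therefore not known. In SRSF9, 43.6% of exonic bases lie opposite exons of GATC, a subunit of mitochondrial glutamyl-tRNA amidotransferase (mean 366), and 3.13% are shared on the same strand with the long non-coding RNA NRAV (mean 225). In SRSF2, 27.7% lie opposite MFSD11, a transporter-like gene (mean 402). The library kit keeps strand, but whether counting used it is not given in the sources used here. SRSF1 and SRSF6 share 32.7% and 13.4% of exonic bases with unnamed protein-coding gene models on the same strand, and the table gave no mean for either model. A microRNA gene, MIR636, covers 3.33% of the exonic bases of SRSF2, and an unnamed transcript lies opposite 7.61% of those of SRSF1. The other 6 SR genes shared no exonic base with another annotated gene.

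Genes related to SR proteins gave a frame for these levels. They are genes that act with or oppose SR proteins, and the m6A reader and writers. Of 42 such genes, 41 were measured, with a median of 171 normalized counts per kilobase of exon, and 32 lay above the protein-coding median. Among 15 other SR and SR-like proteins the median was 177. SRRM2, a scaffold protein of nuclear speckles, was highest at 983 per kilobase and SRSF12 lowest at 6.83. TRA2B, an SR-like activator that binds purine-rich enhancers, had 219 per kilobase. The SR genes' median of 375 was above this group's, and the ranges overlapped.

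The kinases and the importer of SR proteins were lower, with a median of 97.7 per kilobase over 9 genes. TNPO3, the importin that carries phosphorylated SR proteins into the nucleus, was highest at 335, and CLK3 was lowest at 21.5. Export partners had a median of 295 over 3 genes, from NXF1, the bulk mRNA export receptor (103), to ALYREF, its adaptor (536). Core factors that SR proteins contact had a median of 263 over 5 genes, with U2AF2, the large U2AF subunit that reads the polypyrimidine tract, at 1018 and U2AF1, the small subunit, at 96.0.

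Transcripts of proteins that often oppose SR proteins at exons had the highest median of these groups. The 5 hnRNP genes listed for this had a median of 833 per kilobase, from PTBP1 at 686 to HNRNPK at 1265. They are only a part of the hnRNP family, and its other genes were not analysed here. Of the SR genes, SRSF2, SRSF1 and SRSF6 lay within that range and the other 7 below it. YTHDC1 itself, the siRNA target, had 33.0 per kilobase (mean normalized count 232, both groups pooled), close to SRSF10 at 33.2. The YTHDC1 mean includes the 6 siYTHDC1 libraries, so it does not give the level of YTHDC1 in siSCR cells. METTL3, the catalytic subunit of the m6A methyltransferase, was highest of the reader and writers at 171, and the median of these 4 genes was 93.1.

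**Figure D3:**
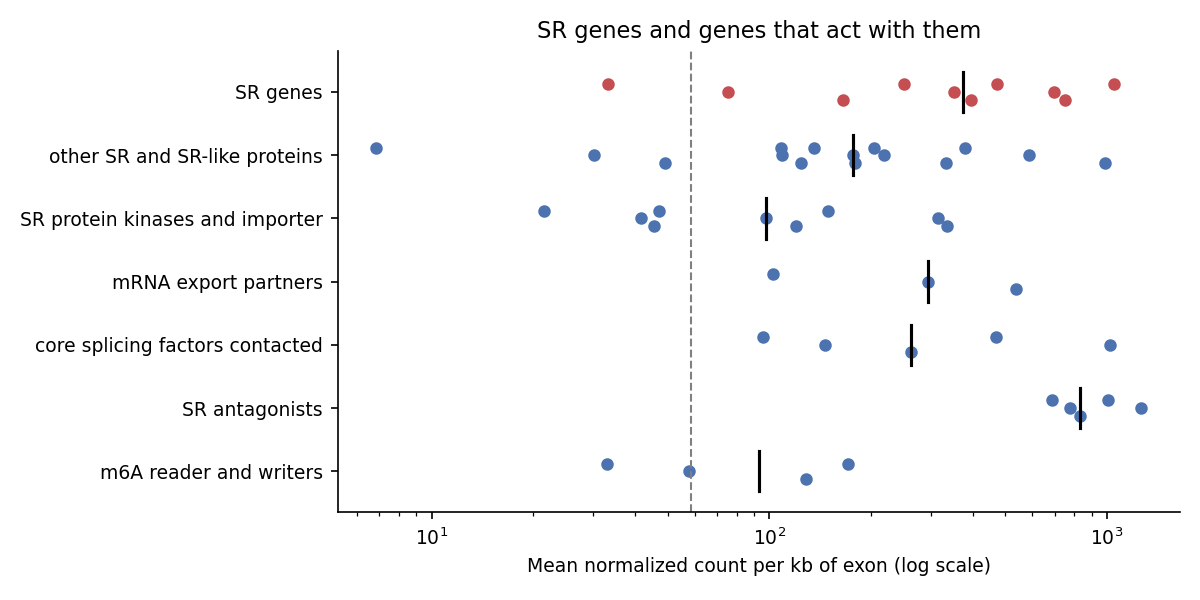
Mean normalized count per kilobase of exon (x axis, log scale), 1 point per gene, for the 10 SR genes (red) and 6 groups of related genes (blue), with a black bar at each group's median and a dashed line at the protein-coding median of 58.6. Vertical offsets within a row carry no value. The SR antagonists sit between 686 and 1265, and the SR genes spread from 33.2 to 1047.

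The rule used symbols and means, so the annotated transcripts of the SR genes were looked at as an independent feature. All 10 had at least 1 transcript annotated as a target of nonsense-mediated decay, as did 45.9% of the protein-coding genes of the table, and 54.6% of the 5903 whose mean lay within the SR genes' range. Retained-intron transcripts were annotated for 9 of 10, SRSF6 being the exception, beside 59.0% and 69.0%. Both kinds were present in 9 SR genes, beside 36.0% and 46.1%. The median number of annotated transcripts was 11.5 for SR genes, 8 for protein-coding genes and 10 for those within the range. More transcripts were thus listed per SR gene, which can raise the share of genes with at least 1 of a kind. Counted by transcript, retained-intron entries were 30 of 120 for SR genes and 16662 of 74192 for genes within the range. Decay-targeted entries were 28 of 120 and 10431 of 74192.

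SRSF7 had the most decay-targeted transcripts, 6 of 12, and SRSF9 had 5 of 13. SRSF5 had the most retained-intron transcripts, 8 of 19. SRSF3 had 2 decay-targeted and 4 retained-intron transcripts among 8, and SRSF10 had 2 of each among 16. These are counts of annotation entries and say nothing of how much of each form the A549 cells made. The per-gene mean counts reads of all forms of a gene together, and reads over single introns or exons were not analysed here.

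**Figure D4:**
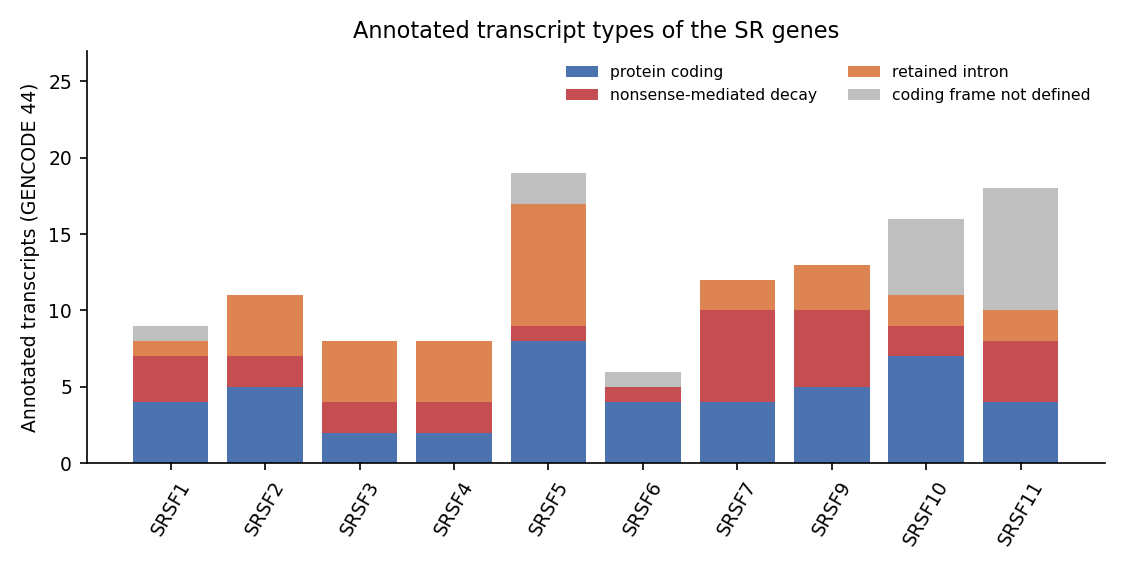
Number of annotated transcripts per SR gene (y axis, from 0) by annotated type (colours), from GENCODE 44 mapped to GRCh37. The red part, decay-targeted transcripts, is present in all 10 genes, and the orange part, retained introns, in all but SRSF6.

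GGACT, 1 form of the m6A consensus in DNA letters, was searched on the sense strand of each gene's canonical transcript. Other forms and other transcripts were not searched. In the canonical transcript GGACT was present for 9 of 10 SR genes, SRSF5 being the exception, and for 91.5% of 14014 protein-coding genes. SR transcripts held a median of 0.54 matches per kilobase, beside 0.94 for protein-coding genes (quartiles 0.57 and 1.39). SRSF9 (2.60 per kilobase) and SRSF7 (2.12) were above that upper quartile, and 6 of the 10 were below the lower quartile: SRSF5, which had none, SRSF4 (0.43), SRSF6 (0.46), SRSF3 (0.47), SRSF10 (0.52) and SRSF1 (0.56). A match lay within 200 bases of the stop codon, the region where m6A is known to be frequent, in 3 of 10 SR genes and in 37.5% of protein-coding genes.

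The match nearest to the stop codon is shown for the YTHDC1 partners SRSF3 and SRSF10, and for SRSF2 and SRSF7, the other SR genes with a match within 200 bases. Sequences are in sense orientation, with the GGACT match in capitals and its 10 flanking bases on each side in lower case, from GENCODE 44 transcripts on GRCh37.

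SRSF3: cctgtccattGGACTgtaaggttta
SRSF10: tcaaggtcttGGACTagtcctaagt
SRSF2: tgtaaacggaGGACTtggggaaaaa
SRSF7: ctgaaagaatGGACTgaagctctca

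In SRSF3 the match is coding, at chr6:36564563-36564567 on the plus strand, 469 bases before the stop codon and so near the start of the reading frame. In SRSF10 it is coding, at chr1:24297656-24297660 on the minus strand, 26 bases before the stop codon. In SRSF2 it lies in the 3′ UTR, at chr17:74731210-74731214 on the minus strand, starting 36 bases after the first base of the stop codon. In SRSF7 it begins 4 bases before the stop codon, at chr2:38972277-38972281 on the minus strand, so that its last base is the first base of that codon. A match is a description of letters, and methylation at these positions was not analysed here.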

How the data were processed

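Total RNA of 12 A549 libraries, 6 per group, was treated with DNase and depleted of ribosomal RNA, and stranded libraries were prepared. Per the labels, STAR, HTSeq and the build hg19 were used. The authors counted reads on a GENCODE annotation that predates the one used here, and scaled and compared the libraries with DESeq2, adding a term for sequencing batch. The signal analysed is the mean normalized count per gene over the 12 libraries that the authors deposited, and the lowest was 1.52. The other 5 value columns hold the authors' own comparison of both groups (fold change, its error, statistic, p-value and adjusted p-value) and were not used, so no test between groups was made. The depth reached in each library cannot be read from the table.

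Gene IDs were matched without version to GENCODE 44 mapped to GRCh37, the same build as hg19, which held 21798 (96.6%). Exonic length is the union of all annotated exons of a gene. Percentiles give the share of genes at or under a value. The canonical transcript of each gene was searched for GGACT. Functions were tested on simulated data. Python 3.11.15, numpy 2.4.6 and matplotlib 3.10.9 were used.

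All 10 SR genes were named. Of the related genes, the highest and the lowest per kilobase of each group were named, with YTHDC1, METTL3, TRA2B and SRSF12 always. Other genes of the family were named at a mean of at least 10; SRSF10P1, below it, was named after its value was seen, as were GATC, NRAV, MFSD11 and the genes of the marker check. The members and lists were chosen with earlier results of these data known. The transcript types, the GGACT search, the siRNA match and the overlaps were added after the table was seen. Protein sequences were not used here, so planned comparisons of protein identity and of arginine-serine dipeptides were not run.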

Additional observations from a re-analysis of the deposited data

How the results depend on the processing

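The family's share of all normalized counts was 0.182%, and 0.186% without mitochondrially encoded and ribosomal RNA genes. The median percentile of the 10 SR genes by mean normalized count was 93.0 among all genes, 89.1 among protein-coding genes and 84.9 among genes with a mean of at least 100. Per kilobase, among protein-coding genes, it was 93.1 with the union of exons, 94.9 with the longest transcript and 95.7 with the coding length. Summing all rows of a symbol changed no value, since each symbol had 1 row. No paired analysis was possible because the table has no column per library, and for the same reason no library could be left out. A batch that differs between groups, and any difference between siYTHDC1 and siSCR, could not be examined from these means. Protein alignments and dipeptide counts were not run under any setting. Levels per kilobase depend on the annotated exons, and the authors counted on another release.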
